A study of Mus musculus with 4 samples.

Results

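Interferons act on macrophages through cell-surface receptors, a relay of kinases and STAT proteins, and transcription factors of the interferon regulatory factor (IRF) family. Irf1, Irf2, Irf3, Irf5, Irf7, Irf9, Stat2, Ifngr1 and Ifnar1 were described here in tumor-associated macrophages (TAMs). These 9 genes were chosen by name as members of the pathway, with earlier results of these data known, and are 9 of the 16739 genes with a value in any library. All 9 passed the filter on low counts and were among the 11302 genes tested.

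RNA was sequenced from 2 WT libraries and 2 libraries labelled Trim24-deficient (called deficient-labelled below), sorted as CD45+CD11b+F4/80+ cells from subcutaneous B16-F10 melanomas on day 16. All mice were C57BL/6, were 6 to 8 weeks old when they received the melanoma cells, and had no other treatment named. The study's Trim24-deficient mice carried Trim24 flox/flox with LysM-Cre, which drives recombination from the lysozyme M locus in myeloid cells at large and not in macrophages alone, and the WT mice were littermates. The sources used here do not state whether a library came from 1 mouse or from several, so the p-values measure only the spread between these libraries.

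As background, the type I interferons (the interferon-alpha and interferon-beta proteins) bind a receptor made of IFNAR1 and IFNAR2, and interferon-gamma, the product of activated T and NK cells, binds IFNGR1 with IFNGR2. Signals of the type I receptor bring STAT2 and IRF9 into the complex ISGF3, which reads interferon-stimulated response elements (ISRE), whereas interferon-gamma acts through gamma-activated sites (GAS). IRF3, IRF5 and IRF7 act further upstream, where sensors of nucleic acid and Toll-like receptors switch on interferon and cytokine genes. IRF1 is an activator induced by interferon-gamma, and IRF2 competes with it at many of the same sites.

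The expected counts of the libraries summed to between 4476122 and 5172407, at which 3 counts correspond to 0.58 to 0.67 CPM (expected counts per 1e6) before TMM scaling, a floor that covers counting error only. All other CPM values are TMM-scaled. The targeted gene, Trim24, was at 5.86 and 2.08 CPM in the WT pair, beside 3.41 and 0.411 CPM in the deficient-labelled libraries, so the groups overlapped. The values are per gene, and reads of the deleted part could not be told apart from the rest. Xist was at 6.46 to 10.9 CPM in the WT libraries and at 256 to 437 CPM in the others, and all 4 Y-linked genes listed fell in the deficient-labelled libraries (edgeR quasi-likelihood, adjusted p from 5.93e-05 to 0.00594). Sex and genotype label therefore cannot be told apart in any difference below. The paper, in contrast, describes the mice of its tumor model as matched for age and sex. The macrophage list held in every library, with all 8 markers tested, and summed to 9494 and 8602 CPM in WT against 10420 and 10450 CPM. All 8 had a log2 fold change above 0, as had 49.4% of all genes tested. Of these, 5 lay higher in both deficient-labelled libraries than in both WT libraries, beside 21.4% of all genes. edgeR and DESeq2 called 0 of the 8. Melanoma markers summed to 585 to 789 CPM, of which Tyr gave 375 to 496 CPM. Of the 6 melanoma markers, 5 had a log2 fold change below 0, and Mlana, Dct and Tyrp1 were lower in both deficient-labelled libraries than in both WT libraries, with 0 called by edgeR or DESeq2 and 1 (Tyrp1) at an unadjusted p under 0.05 by edgeR.

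Markers of other myeloid cells moved with the label. All 5 listed monocyte genes lay higher in both deficient-labelled libraries than in both WT libraries, beside 21.4% of all genes tested. Their levels summed to 556 and 715 CPM in WT against 1752 and 1194 CPM. Of these 5, edgeR called 1 higher and DESeq2 4, beside 0.292% and 1.17% of all genes. The neutrophil list summed to 119 and 138 CPM in WT against 242 and 359 CPM. Of this, Csf3r gave 87.0 and 96.9 against 170 and 157 CPM, and S100a8 gave 17.4 and 15.6 against 35.1 and 118 CPM. Ly6g, its defining marker, was below the filter, at 0 in WT and 1.92 and 0.822 CPM in the others (9 and 4 counts). Of the 4 tested genes of the neutrophil list, edgeR called 0 and DESeq2 called 2 higher, beside 1.17% of all genes by DESeq2. The NK list summed to 50.7 and 24.6 CPM in WT against 183 and 65.1 CPM, of which 1 gene, Klrk1, gave 42.8 and 19.2 against 162 and 59.4 CPM. Of the other NK markers, Eomes was lower, at 1.61 and 1.25 against 0.426 and 0.411 CPM, and Ncr1 (0.606 and 0.833 against 3.83 and 0.411 CPM) and Gzma (4.85 and 1.88 against 12.1 and 3.29 CPM) overlapped. The part of these lists in the results below was not tested. In sorted bulk cells, a change in the mix of cells and a change of RNA per cell cannot be told apart. The T cell list overlapped between the labels, at 78.1 and 60.0 CPM against 149.5 and 53.0 CPM, and so did the B cell list, at 55.3 and 46.3 against 55.4 and 51.6 CPM. The conventional dendritic cell list overlapped too, at 48.1 and 44.2 against 78.4 and 36.4 CPM. The plasmacytoid dendritic cell list, whose cells are known for high Irf7, held no gene above the filter and summed to 3.23 to 8.13 CPM. The fibroblast and endothelial list was at 17.8 and 12.1 CPM in WT and at 39.6 and 26.1 CPM in the deficient-labelled libraries, of which Pecam1, the 1 gene of the list tested, gave 16.0 and 5.63 against 36.0 and 22.0 CPM. Cdh5, the other endothelial gene listed, was at 0.202 and 2.92 against 0.639 and 0.205 CPM.

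Promoter windows were searched for the letters of both elements, since these members belong to the interferon pathway and some are known as its targets. Each RefSeq window (GRCm38.p6) runs from 250 bases before to 50 bases after an annotated start. The GAS letters searched were TTCNNNGAA, which read the same on both strands, and the ISRE core letters were GAAANNGAA on either strand. Of 32851 windows, 8.3% held the GAS letters and 8.56% the ISRE core. Among the 11500 windows of tested genes these shares were 7.12% and 7.63%. The share of windows with either element was not counted. All 9 members had a window, 11 in all, and 4 windows of 4 members held a match. Irf1 held GAS letters 90 to 82 bases before its start (chr11:53769764-53770063, plus strand), Stat2 an ISRE core on the opposite strand 221 to 213 bases before (chr10:128270248-128270547, plus strand), and Irf2 an ISRE core and GAS letters (chr8:46739495-46739794, plus strand). Ifnar1 held GAS letters across its start (chr16:91484965-91485264, plus strand). No matches shared bases with each other. These 4 windows are shown because they carry the letters, which are in capitals, 5′ to 3′; a match is a description and not a bound site.
Irf1: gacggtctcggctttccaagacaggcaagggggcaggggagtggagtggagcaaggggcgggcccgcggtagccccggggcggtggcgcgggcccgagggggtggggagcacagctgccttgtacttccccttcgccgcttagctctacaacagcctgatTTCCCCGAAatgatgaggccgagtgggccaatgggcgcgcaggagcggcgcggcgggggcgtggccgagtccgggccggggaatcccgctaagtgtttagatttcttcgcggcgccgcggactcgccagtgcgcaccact
Stat2: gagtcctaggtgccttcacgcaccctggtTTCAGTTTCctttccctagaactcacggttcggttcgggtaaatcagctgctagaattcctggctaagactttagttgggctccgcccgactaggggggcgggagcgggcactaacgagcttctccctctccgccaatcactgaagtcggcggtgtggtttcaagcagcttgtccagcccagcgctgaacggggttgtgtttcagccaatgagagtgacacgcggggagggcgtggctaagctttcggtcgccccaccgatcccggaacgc
Irf2: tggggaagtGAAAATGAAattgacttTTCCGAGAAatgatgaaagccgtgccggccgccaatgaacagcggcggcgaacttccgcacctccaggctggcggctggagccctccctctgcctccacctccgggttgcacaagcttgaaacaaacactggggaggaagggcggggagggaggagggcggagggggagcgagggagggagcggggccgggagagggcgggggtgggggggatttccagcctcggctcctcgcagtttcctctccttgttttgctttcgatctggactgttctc
Ifnar1: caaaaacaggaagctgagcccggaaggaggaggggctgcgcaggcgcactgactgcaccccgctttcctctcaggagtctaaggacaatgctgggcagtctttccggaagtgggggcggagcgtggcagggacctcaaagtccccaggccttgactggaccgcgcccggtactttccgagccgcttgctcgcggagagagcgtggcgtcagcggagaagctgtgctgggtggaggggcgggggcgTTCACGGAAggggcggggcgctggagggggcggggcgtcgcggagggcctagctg

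Levels were compared between the genes on the FPKM scale, which is per length. Irf7, the amplifier of type I interferon production, was the highest in each of the 4 libraries, at 243 to 422 FPKM and a mean of 316 FPKM. Irf5, which drives inflammatory cytokine genes downstream of Toll-like receptors, followed with 148 to 201 FPKM. Irf1 ran from 57.8 to 226 FPKM and overlapped with both Irf5 above it and Ifngr1 below it (77.6 to 108 FPKM). Irf9 at 42.5 to 63.8 FPKM and Ifnar1 at 41.2 to 56.6 FPKM overlapped. Stat2 at 24.4 to 42.5, Irf2 at 25.9 to 36.5 and Irf3 at 22.2 to 29.9 FPKM formed the lowest trio, with overlapping neighbours.

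Irf7 and Irf5 did not overlap over the 4 libraries, nor did Ifngr1 and Irf9, and every other step in the order overlapped. Within the WT libraries Ifngr1 (86.6 ± 12.7 FPKM, SD, n = 2) stood before Irf1 (79.9 ± 31.3), and in the deficient-labelled libraries Irf1 (159 ± 94.4) stood before Ifngr1 (104 ± 5.39), both with overlapping ranges. Even the lowest of the genes, Irf3, had a mean FPKM above 72.2% of the genes tested.

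**Figure D1:**
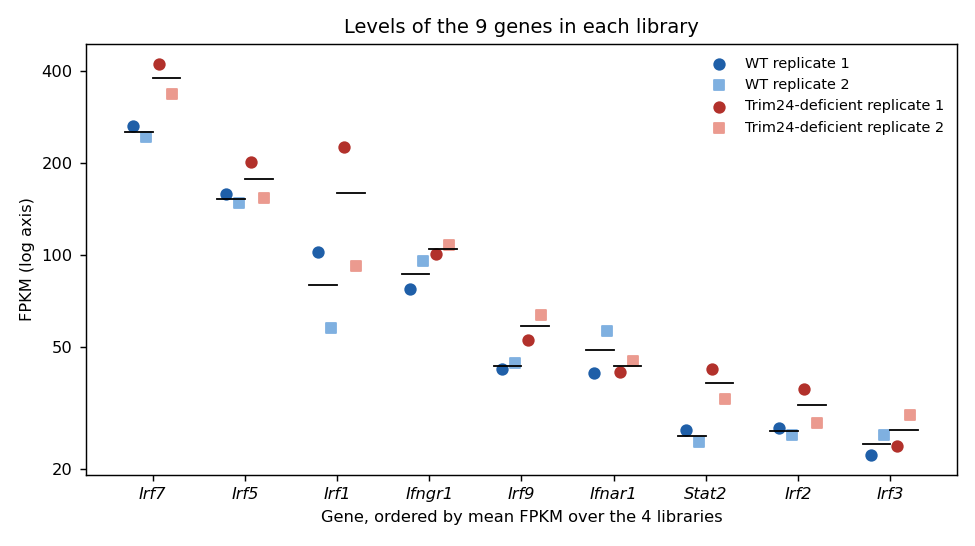
FPKM on a log axis (vertical) of the 9 genes (horizontal), ordered by their mean over the 4 libraries; each point is 1 library and each short line the mean of a group of 2. Irf7 sits at 243 to 422 FPKM, above all other genes in every library, while Irf1 runs from 57.8 to 226 FPKM.

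The question of the genotype comparison was whether loss of Trim24 in myeloid cells came with another expression profile of TAMs. None of the 9 genes passed a fold change above 1.5 with an FDR below 0.05 (edgeR quasi-likelihood fit, Benjamini-Hochberg adjusted), a call that 0.372% of all genes tested received (0.292% higher, 0.0796% lower). The fitted difference was above 0 for 8 of the 9, as for 49.4% of all genes tested, and the median log2 fold change was 0.43, beside -0.0059 for all genes tested. At an unadjusted p under 0.05, 4 of the 9 lay higher in the deficient-labelled libraries by edgeR (Irf1, Irf7, Irf9 and Stat2), beside 6.58% of all genes that did so and 12.2% in either direction. DESeq2 also called 0 of the 9, beside 1.38% of all genes, and 3 had an unadjusted p under 0.05, beside 7.95%. With limma on log2(FPKM + 1), 0 of the 9 were called, beside 0.207% of all genes (0.126% higher), and 3 had an unadjusted p under 0.05, beside 13.2%. A fit with the replicate number as a block called 3, beside 5.61% of all genes (3.76% higher). The labels do not say whether same-numbered libraries were handled together.

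In CPM, 7 of the 9 had both deficient-labelled libraries above both WT libraries, as had 21.4% of all genes tested. In FPKM 5 of the 9 did (Irf2, Irf7, Irf9, Stat2 and Ifngr1), beside 12.3% of all genes, and Irf3 and Irf5 overlapped on that scale. Taking library totals in place of TMM shifted the median of all genes to -0.15 and that of the 9 to 0.29. With 2 libraries against 2, an exact permutation test (two-sided) cannot give a p below 0.333.

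**Figure D2:**
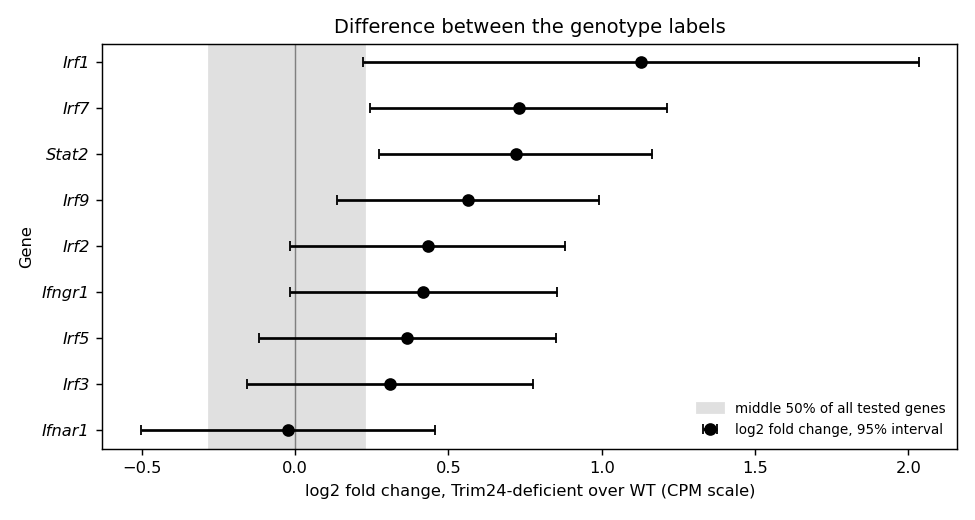
log2 fold change on the CPM scale (horizontal) of the 9 genes (vertical), deficient-labelled libraries over WT; points are edgeR estimates, bars their 95% intervals, and the grey band holds the middle 50% of all genes tested. The estimates run from -0.02 for Ifnar1 to 1.13 for Irf1, and only the intervals of Irf1, Irf7, Stat2 and Irf9 lie wholly above 0.

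The receptor chains differed from each other within the libraries. Ifnar1, the signal-transducing chain of the type I receptor (GRCm38 chromosome 16, 91485032 to 91510523, plus strand, 11 exons in its longest basic GENCODE transcript), was at 286 (replicate 1) and 376 CPM (replicate 2) in WT, and at 310.1 and 342 CPM in the deficient-labelled libraries. Both latter libraries lay between the WT libraries. Its log2 fold change was -0.02 with a 95% interval of -0.50 to 0.46 (edgeR quasi-likelihood, adjusted p = 0.976), and it was 0.05 without deficient-labelled replicate 1 and 0.19 without WT replicate 2.

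Ifngr1, the ligand-binding chain of the interferon-gamma receptor (chromosome 10, 19591949 to 19610229, plus strand, 7 exons), was at 161 and 190.0 CPM in WT and at 224 and 245 CPM in the deficient-labelled libraries. The groups did not overlap. The log2 fold change was 0.42 with an interval of -0.02 to 0.85 (edgeR quasi-likelihood, adjusted p = 0.42). The ratio of Ifngr1 to Ifnar1 in FPKM, which no library scaling can move, was 1.88 and 1.69 in WT and 2.42 and 2.40 in the deficient-labelled libraries. This ratio was chosen with the values known, so it is given without a test. Ifnar1 is the longest of the 9 at 7025 bases and Ifngr1 has 2126, and over all genes tested the fold change was lower for longer genes (Spearman's rho -0.249, across genes, which are not independent replicates). With that length trend taken out of each library, the log2 fold change was 0.37 for Ifngr1 and 0.20 for Ifnar1.

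Of the other receptor chains and kinases, 6 of 7 were tested and 0 were called by edgeR or by DESeq2, with 0 at an unadjusted p under 0.05 by edgeR. Their median log2 fold change was 0.07. The partner chain Ifngr2 was at 142 and 164 CPM in WT and 163 and 157 CPM in the deficient-labelled libraries, and Ifnar2 was at 110 and 142 against 121 and 111 CPM. Il10rb, a chain shared with interleukin-10 and interferon-lambda receptors, was at 209 and 228 against 224 and 236 CPM. The kinase Jak1, which both interferon receptors use, was at 235 and 221 against 238 and 259.9 CPM.

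Interferon transcripts themselves were scarce. Of 21 ligand genes 4 had a count in any library and 2 passed the filter, and neither was called, by edgeR or by DESeq2, with 1 (Ifng) at an unadjusted p under 0.05 by edgeR. Ifng, the interferon-gamma gene, had counts of 39 and 19 in WT and of 187 and 36 in the deficient-labelled libraries. In CPM that is 7.88 and 3.96 against 39.8 and 7.40, with overlapping groups and a log2 fold change of 1.99 ± 0.67 (SE, edgeR adjusted p = 0.273). Deficient-labelled replicate 1 held the highest level of Ifng and also the highest sums of the NK list (183 CPM, mostly Klrk1) and of the T cell list (149.5 CPM). This was not particular to those lists. The monocyte (1752 CPM), conventional dendritic cell (78.4 CPM) and fibroblast and endothelial (39.6 CPM) lists were highest there too. The neutrophil list was highest in deficient-labelled replicate 2 (359 CPM). Ifnb1, the interferon-beta gene, had counts of 23 and 8 against 6 and 11.

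Stat2 and Irf9, both subunits of ISGF3, lay higher in the deficient-labelled libraries without passing the test. Stat2 (chromosome 10, 128270498 to 128292853, plus strand, 24 exons) was at 116 and 101.5 CPM in WT and at 198.5 and 160.3 CPM in the deficient-labelled libraries. Each of the latter was above each WT library. Its log2 fold change of 0.72, or 1.65-fold, had an interval of 0.27 to 1.17 (edgeR quasi-likelihood, adjusted p = 0.2). Without deficient-labelled replicate 2 it was 0.87 and without replicate 1 of that label 0.56. In such fits the lone library of an arm is assumed to vary like the others.

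Irf9, the DNA-binding subunit of ISGF3 (chromosome 14, 55603985 to 55610030, plus strand, 10 exons), was at 99.6 and 100 CPM in the WT pair, which was nearly level. It was at 132 and 163 CPM in the deficient-labelled libraries, so the groups did not overlap. The log2 fold change was 0.56 with an interval of 0.14 to 0.99 (edgeR quasi-likelihood, adjusted p = 0.273). It was 0.71 without deficient-labelled replicate 1 and 0.41 without replicate 2 of that label. Exons of Irf9 overlap those of Rnf31 on the same strand in GENCODE, and how the counting shared such reads is not given in the sources used here. Stat2 was highest in deficient-labelled replicate 1 and Irf9 in replicate 2 of that label, and their ratio in FPKM, Irf9 over Stat2, overlapped between the labels (1.59 and 1.82 in WT, 1.24 and 1.89 in the others).

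Among the other IRF and STAT genes, 8 of 9 were tested, and all 8 had a log2 fold change above 0 with a median of 0.38. Of these, edgeR called 0 and DESeq2 1. By edgeR 2 were higher at an unadjusted p under 0.05, beside 6.58% of all genes. Irf8, a factor of the myeloid lineage, was at 330.1 and 294 CPM in WT against 517 and 388 CPM in the deficient-labelled libraries. Stat3, which relays interleukin-6 and interleukin-10, was at 251 and 243 against 353 and 311 CPM. Stat6, which relays interleukin-4, was at 239.9 and 256 against 284 and 310.1 CPM.

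Irf7 carried the largest share of the reads among the IRF members (chromosome 7, 141263183 to 141266499, minus strand, 10 exons). It was at 470 and 416 CPM in WT and at 813 and 655 CPM in the deficient-labelled libraries. The lowest of the latter was above the highest WT library. The log2 fold change was 0.73, or 1.66-fold, with an interval of 0.25 to 1.21 (edgeR quasi-likelihood, adjusted p = 0.219). Without deficient-labelled replicate 2 it was 0.88 and without replicate 1 of that label 0.57.

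Irf3, the constitutive factor phosphorylated by TBK1 downstream of STING, MAVS and TRIF (chromosome 7, 44997648 to 45002848, plus strand, 8 exons), was at 45.2 and 50.6 CPM in WT and at 52.0 and 66.8 CPM in the deficient-labelled libraries. WT replicate 2 and the lower of the others were close, and in FPKM the groups overlapped. Its log2 fold change was 0.31 with an interval of -0.16 to 0.78 (edgeR quasi-likelihood, adjusted p = 0.579). The ratio of Irf7 to Irf3 in FPKM was 11.9 and 9.37 in WT and 17.8 and 11.2 in the deficient-labelled libraries, which overlapped.

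Irf5 (chromosome 6, 29526130 to 29541869, plus strand, 9 exons) was at 331 and 297 CPM in WT and at 460.3 and 349 CPM in the deficient-labelled libraries, with no overlap. Its log2 fold change was 0.37 with an interval of -0.12 to 0.85 (edgeR quasi-likelihood, adjusted p = 0.522). Its exons overlap those of Tnpo3 on the opposite strand, and those of Irf1 overlap Gm17334 on the opposite strand, and whether the counting used strand is not given in the sources used here.

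Of the sensors and adaptors that feed these factors, all 15 were tested, 13 had a log2 fold change above 0 with a median of 0.20, and 1 was called. That gene, Tlr7, the endosomal receptor for single-stranded RNA, fell in the deficient-labelled libraries, from 208 and 219 CPM to 77.5 and 86.3 CPM (log2 fold change -1.38 ± 0.19 SE, edgeR adjusted p = 0.0165). It lies on chromosome X, and sex cannot be told apart from the label here. Without WT replicate 2 it was -1.34 and not called (edgeR adjusted p = 0.121), and it was called without each of the other libraries in turn. Myd88, the adaptor of most Toll-like receptors, was at 205 and 197 CPM in WT and at 342 and 298 CPM in the others. The nucleic acid sensor Zbp1 was at 173 and 117 against 372 and 213 CPM, and Sting1 was at 180.1 and 136 against 275 and 209 CPM. Ikbke, a kinase related to TBK1, was at 94.7 and 76.9 against 218 and 160.1 CPM, with edgeR adjusted p = 0.0774. DESeq2 called Ikbke (adjusted p = 0.00258) and Tlr7 in this list and none of its other genes.

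Irf1 had the largest fitted difference of the 9 and also the largest spread (chromosome 11, 53770014 to 53778374, plus strand, 10 exons). It was at 214 and 116 CPM in WT and at 510.3 and 212 CPM in the deficient-labelled libraries. WT replicate 1 and deficient-labelled replicate 2 were nearly level, so the groups overlapped. The log2 fold change was 1.13 with an interval of 0.22 to 2.03 (edgeR quasi-likelihood, adjusted p = 0.303, with an exact two-sided permutation p of 0.667). It ranged from 0.36 without deficient-labelled replicate 1 to 1.65 without WT replicate 1. Without deficient-labelled replicate 2 it was 1.63, and without WT replicate 2 it was 0.75.

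Both libraries numbered 1 were above both libraries numbered 2 for Irf1, which held for 14.4% of all genes tested. Across the 4 libraries, Ifng and Klrk1 were likewise highest in deficient-labelled replicate 1 and lowest in WT replicate 2, and their part in the Irf1 levels was not tested.

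Irf2, the antagonist of Irf1 at shared sites (chromosome 8, 46739745 to 46847458, plus strand, 9 exons), was at 66.0 and 60.2 CPM in WT and at 95.6 and 74.8 CPM in the deficient-labelled libraries, with no overlap. Its log2 fold change was 0.43 with an interval of -0.02 to 0.88 (edgeR quasi-likelihood, adjusted p = 0.419). The ratio of Irf1 to Irf2 in FPKM was 3.76 and 2.23 in WT and 6.18 and 3.28 in the deficient-labelled libraries, which overlapped.

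**Figure D3:**
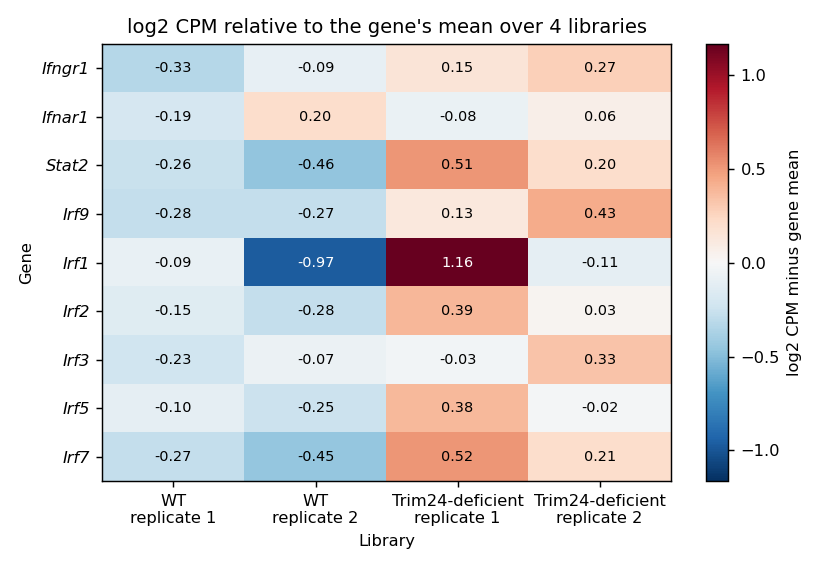
Colour and printed value give the log2 CPM of each gene (rows) in each library (columns) minus the mean of that gene over the 4 libraries. Irf1 spans from -0.97 in WT replicate 2 to 1.16 in deficient-labelled replicate 1, while Ifnar1 stays within -0.19 to 0.20.

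The library with the highest level differed between the genes, which was not tested. Irf1, Irf2, Irf5, Irf7 and Stat2 were highest in deficient-labelled replicate 1, and Irf3, Irf9 and Ifngr1 in replicate 2 of that label, while Ifnar1 was highest in WT replicate 2. The mean of the 9 centred profiles was -0.21 and -0.29 in WT and 0.35 and 0.16 in the deficient-labelled libraries, in log2 CPM. Among the 5342 genes whose log2 CPM averaged 5 or more, those with the highest Pearson's r to that mean were Daglb, Xdh, Gpr35, Rnaset2b and Ugp2 (r from 0.99907 to 0.9995 over 4 libraries). With so few libraries such values are common, since 310 genes had an r above 0.95.

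Inhibitors of interferon signalling were listed with 14 genes, all tested, of which 8 had a log2 fold change above 0 with a median of 0.30. Both edgeR and DESeq2 called 0 of them. By edgeR 6 were higher and 1 lower at an unadjusted p under 0.05, beside 6.58% of all genes higher and 12.2% in either direction. Usp18, which blocks the type I receptor and is itself induced by interferon, was at 76.1 and 96.0 CPM in WT and at 149 and 148 CPM in the deficient-labelled libraries. The phosphatases Ptpn6 and Ptpn1 were at 707 and 549.6 against 1055 and 814 CPM, and at 226 and 202 against 327 and 278 CPM. Isg15, a ubiquitin-like modifier that USP18 removes from proteins and that is itself a target, was at 87.0 and 94.2 against 141 and 107 CPM.

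Targets of the 2 arms of the pathway were listed separately, although Isg15, Usp18 and Socs1 each stand in more than 1 list. All 30 type I interferon-stimulated genes were tested, 25 had a log2 fold change above 0, and the median was 0.46. edgeR called 0, with 15 higher and 0 lower at an unadjusted p under 0.05, beside 6.58% of all genes higher. DESeq2 called 2 higher, beside 1.17% of all genes. Ifitm3, a restriction factor against virus entry, was at 794 and 642 CPM in WT and at 1408 and 1187 CPM in the deficient-labelled libraries. Ifi27l2a, in contrast, was at 651 and 634 against 544 and 718 CPM, and Bst2, the tetherin gene, was at 385 and 309 against 393 and 355 CPM. Ifit3 was at 287 and 342 against 427 and 390.2 CPM. The members of this list thus ranged from -0.52 to 1.04 in log2 fold change.

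Of 26 genes listed as targets of interferon-gamma and IRF1, 25 were tested and all 25 had a log2 fold change above 0, with a range of 0.30 to 2.65 and a median of 0.997. The deficient-labelled pair exceeded the WT pair for 21 of the 25, beside 21.4% of all genes. edgeR called 0 of them, with 21 higher and 0 lower at an unadjusted p under 0.05, beside 6.58% of all genes higher. DESeq2, in contrast, called 9 higher, beside 1.17% of all genes. The median was 0.66 without deficient-labelled replicate 1 and 0.67 without WT replicate 2. B2m, the light chain of MHC class I, was at 5989 and 4614 CPM in WT and at 9176 and 6231 CPM in the deficient-labelled libraries. The class I heavy chains H2-D1 and H2-K1 were at 4869 and 3919 against 7388 and 6912 CPM, and at 2638 and 1907 against 4070 and 2872 CPM, and reads of these near-identical genes may have been split between them. Psmb8, an immunoproteasome subunit, was at 755 and 559 against 1141 and 1119 CPM.

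**Figure D4:**
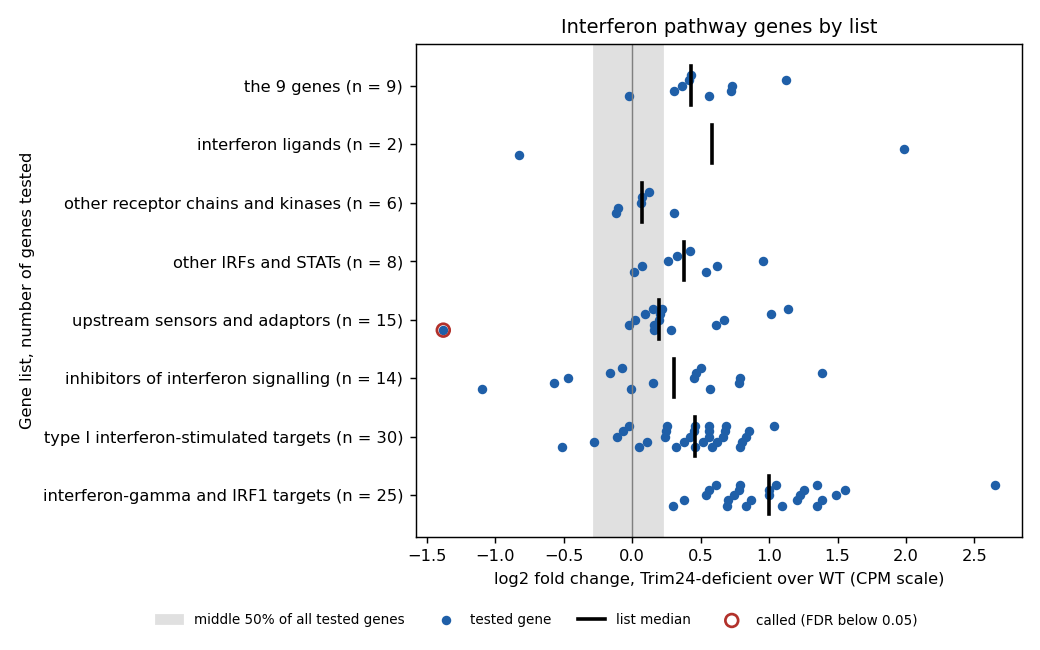
log2 fold change on the CPM scale (horizontal), deficient-labelled libraries over WT, of each tested gene (points) in the lists of the interferon pathway (rows), with the list median as a black line and a red ring around called genes. The median is 0.43 for the 9 genes, 0.07 for other receptor chains and kinases, 0.46 for type I targets and 0.997 for interferon-gamma and IRF1 targets, and Tlr7 is the called gene, at -1.38.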

How the data were processed

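The submitters' processing notes name Bowtie and RSEM. The deposited tables of the authors give per gene an expected count, an FPKM value (scaled to length and mapped fragments) and a length. Versions and the counting strand are not given in the sources used here. The deposited expected counts, rounded to integers, were fitted with edgeR 4.0.16 (R 4.3.3), with TMM scaling, filterByExpr and the quasi-likelihood test over 11302 genes, 2 libraries per group, no covariate. CPM values are TMM-scaled. Calls needed a fold change above 1.5 and a Benjamini-Hochberg FDR below 0.05, the thresholds of the study. Standard errors were derived from the fold change and the F statistic. The deposited FPKM values served for levels and for limma 3.58.1 on log2(FPKM + 1), and DESeq2 1.42.0 was run on the counts. The scripts were tested on simulated data. The members and gene lists were chosen with earlier results of these data known. Named list genes were those called and, in each list, up to 4 with the highest mean FPKM, of which 1 is not reported here. Gene positions are GRCm38. Whether same-numbered libraries shared anything beyond the number is not given in the labels.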

Additional observations from a re-analysis of the deposited data

How the results depend on the processing

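Of all genes tested, 42 were called, beside 156 by DESeq2 (132 higher, 24 lower), 20 by limma on log2(FPKM + 0.1), 23 by limma on log2(FPKM + 1), 0 by the latter without a filter (1636 at an unadjusted p under 0.05), and 25 to 652 with 1 library left out. Of the 9 genes, 0 were called. Which of them passed changed with the library left out, in fits where 1 label has a lone library. The count over all genes moved in those fits too. Of the other listed pathway genes 1 was called, beside 14 by DESeq2, 0 by limma without a filter, 2 without a filter on counts, and 1 to 40 with 1 library left out. With the replicate number as a block, 634 genes, 3 of the 9 (Irf1, Irf7 and Stat2) and 36 other listed genes were called. That fit leaves 1 residual degree of freedom. Its median prior degrees of freedom were infinite, against 7.41 in the main fit, so the spread was shared fully across genes. The labels do not say whether same-numbered libraries were handled together, and their deviations correlated at 0.165 across genes. The log2 fold change of Ifnar1 ran from -0.19 to 0.19 with 1 library left out, and turned positive without the library labelled Trim24-deficient replicate 1 (0.05), without WT replicate 2 (0.19) and with the length trend removed (0.20), an alternative chosen after seeing the data. Of 126 alternative fold changes of the 9 genes, 116 kept direction and side of the threshold, 7 newly passed it and these 3 reversed. With 2 libraries a group, the width of the intervals given limits how closely each difference is known.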
